A study of Homo sapiens with 4 samples.

Results

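The matrix metalloproteinase genes MMP1, MMP2, MMP3, MMP7, MMP9, MMP14 and MMP15 and the inhibitor genes TIMP1, TIMP2 and TIMP3 were followed in HGC-27, a human gastric cancer (GC) cell line. They were taken by gene name from the 4 deposited count files, a gene missing from a file was given 0 counts, and all 10 of 10 had a count in at least 1 library, among 31907 gene names in all. Of the 4 RNA-seq libraries, 2 came from cells given PBS and 2 from cells given recombinant IL-17B (rIL-17B) at 200 ng/ml, both for 48 h, which compares gene expression of GC cells with and without the cytokine. All libraries come from the 1 line, the labels do not say whether the 2 replicates of a group were separate cultures, and the spread between them may therefore be technical. Monocytes are the cells named in the library protocol of the labels, whereas each sample is labelled HGC-27. In bulk RNA, fewer cells that make a transcript and less transcript per cell cannot be told apart.

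Matrix metalloproteinases (MMPs) are zinc-dependent endopeptidases, made as inactive proenzymes, that cut collagens, laminins, fibronectin and many cell surface proteins. TIMPs are secreted inhibitors that occupy their active site, and TIMP2 has a second role as the bridge that holds pro-MMP2 on membrane-bound MMP14 for activation. In the stomach these enzymes are known for the breakdown of the basement membrane during tumour invasion, and MMP7 is the member typical of epithelial cells.

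The counts are reads per gene, and CPM is the count divided by the library total and scaled to 1000000 reads. Library totals lay between 12888029 and 17555879 reads, so that 3 counts, the smallest level a library was taken to show, came to between 0.171 and 0.233 CPM. This limit covers counting error only, because PCR copies were counted as separate reads. rIL-17B replicate 1 stood apart. It differed at least 2-fold, with 0.5 CPM added to each value, from the other 3 libraries in 16.9% to 22.1% of the 16361 genes tested, against 0.477% to 1.78% for the other pairs, the PBS pair among them with 0.636%. Of the markers of the line, CDH1 was near the limit in every library at 0.440 to 0.753 CPM, while KRT8 had 601 and 611 CPM under PBS, against 1457 and 787 CPM in rIL-17B replicates 1 and 2, and VIM had 727, 706, 279.8 and 615 CPM in the same order. The 8 mesenchymal markers summed to 46964 and 46265 CPM under PBS, against 761 and 39237 CPM in rIL-17B replicates 1 and 2, with no marker at 0. FN1, COL1A1 and COL1A2 carried this sum. CDH2 had 125 and 130 CPM under PBS, against 55.8 and 112 CPM with rIL-17B. Both treated libraries lay below both PBS libraries for 7 of the 8, where 27.5% of all genes did. TWIST1 overlapped, with 13.3 and 9.78 CPM under PBS, against 11.7 CPM in each treated library. The 8 epithelial markers summed to 1004 and 999 CPM under PBS, against 2242 and 1257 CPM with rIL-17B, also with no marker at 0. KRT8, KRT18 and KRT7 carried this sum, whereas KRT19 had 2.96, 3.34, 0.0684 and 3.30 CPM. CLDN4 had 6.73 and 8.38 CPM under PBS, against 6.64 and 5.92 CPM with rIL-17B. Both treated libraries lay above both PBS libraries for 5 of the 7 tested, EPCAM and ELF3 among them, where 31.5% of all genes did. They lay below for 1, where 27.5% did. The 8 monocyte markers summed to between 8.55 and 19.7 CPM, with CD68 at 0 in both PBS libraries and 5 markers, PTPRC and LYZ among them, at 0 in rIL-17B replicate 1. FCER1G, the highest of them outside rIL-17B replicate 1, had 8.87 and 6.21 CPM under PBS, against 0 and 9.28 CPM with rIL-17B. CSF1R had 3.90 and 5.59 CPM under PBS, against 8.14 and 6.15 CPM with rIL-17B, and made up most of the sum in replicate 1. Of the 8 neural and glial markers, SOX10 had no count in any library, and the list summed to 387, 608, 27.6 and 281 CPM. NES, with 220, 345, 16.1 and 162 CPM, carried most of this sum. OLIG1 had 46.3 and 71.1 CPM under PBS, against 0 and 27.7 CPM with rIL-17B. OLIG2 had 39.9 and 67.4 CPM under PBS, against 0 and 29.3 CPM with rIL-17B. Both treated libraries lay below both PBS libraries for 4 of the 6 tested, where 27.5% of all genes did. No marker of the 4 lists was called by edgeR in the 4-library fit, in which 0% of all 16361 genes were called. CDH1, LYZ, FCGR3A, CD68, SOX10 and GFAP did not pass its filter on low counts and were not tested. The part of these differences in the MMP and TIMP results was not tested, and every result is therefore given by library.

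HGC-27 cells given PBS expressed a set of 5 of the 10 genes at high level, and the classical stromelysin, matrilysin and gelatinase B genes hardly at all. Genes were compared per kilobase of exon, merged over the coding transcripts of each gene. Which transcripts the cells used was not known, so the order holds for these lengths only. On this scale MMP2 led with 301 ± 14.1 CPM per kb (SD, n = 2 libraries). It was followed by TIMP3 with 247 ± 25.7, TIMP1 with 197 ± 4.26, MMP14 with 167 ± 5.79 and TIMP2 with 118 ± 5.62 CPM per kb. The ranges of the 2 PBS libraries did not overlap between neighbours in this order, and the same order was found in rIL-17B replicate 2. MMP15 came next with 9.62 ± 0.419 CPM per kb and MMP1 with 1.79 ± 0.358 CPM per kb. MMP7, MMP3 and MMP9 had means of 0.299, 0.155 and 0.0135 CPM per kb from 0 to 7 reads a library, and the counting intervals of neighbours in this order overlap. In rIL-17B replicate 1 the order was TIMP2 with 78.9, TIMP1 with 74.5, MMP2 with 18.8, MMP15 with 15.9, TIMP3 with 7.98 and MMP14 with 0.147 CPM per kb. The gelatinase MMP2 and its activator MMP14 thus led the proteases in 3 libraries, and the soluble inhibitors TIMP1 and TIMP2 led the genes in the fourth.

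**Figure D1:**
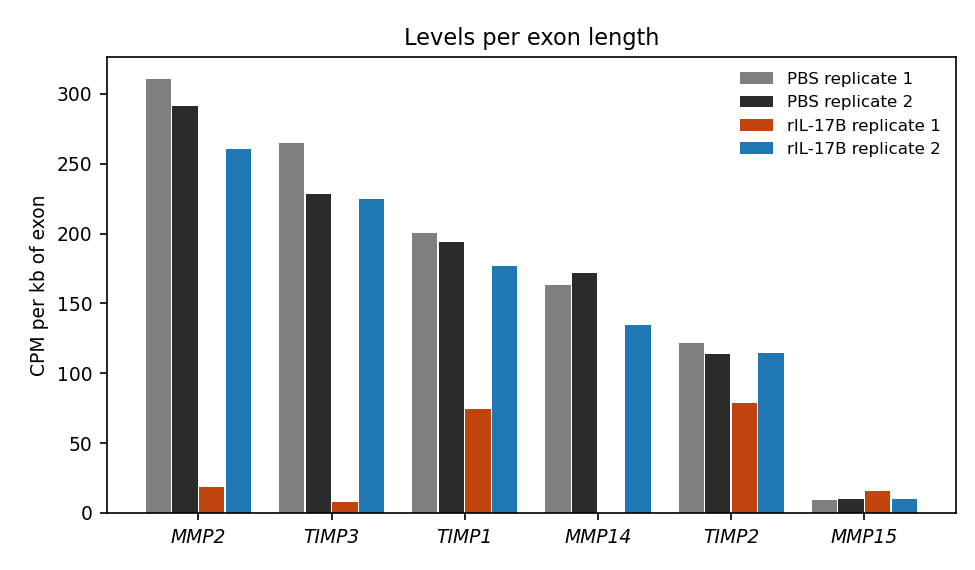
Level per exon length in CPM per kb (linear axis from 0) of the 6 most abundant of the MMP and TIMP genes, 1 bar per library. The PBS and rIL-17B replicate 2 bars run in the same order from MMP2 (291 and 311 with PBS) to MMP15, while in rIL-17B replicate 1 TIMP1 and TIMP2 are the tallest bars and MMP14 at 0.147 is not visible.

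Promoter sequences were read for 5 of the 10 genes, MMP7, MMP14, MMP15, TIMP1 and TIMP3, from RefSeq windows on GRCh38.p14, and the other members are MMP1, MMP2, MMP3, MMP9 and TIMP2. The 250 bases before the RefSeq start are shown for 4 of them. They were chosen for the barely expressed matrilysin gene and for MMP14 and TIMP3, far below PBS in 1 treated library. MMP15 was added because it was higher there. Capitals mark 3 motifs searched on both strands: the AP-1 site TGAGTCA, the TATA box TATAAA and the GC box GGGCGG bound by Sp1. The windows lie at chr11:102530748-102530997, minus strand, at chr14:22836335-22836584, plus strand, at chr16:58025504-58025753, plus strand, and at chr22:32801455-32801704, plus strand, and each is printed 5′ to 3′ along its gene.
MMP7 promoter: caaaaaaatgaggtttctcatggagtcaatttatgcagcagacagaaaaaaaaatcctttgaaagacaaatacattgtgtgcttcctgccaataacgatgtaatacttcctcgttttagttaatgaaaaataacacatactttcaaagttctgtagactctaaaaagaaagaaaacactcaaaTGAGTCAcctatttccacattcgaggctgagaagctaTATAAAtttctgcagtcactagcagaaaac
MMP14 promoter: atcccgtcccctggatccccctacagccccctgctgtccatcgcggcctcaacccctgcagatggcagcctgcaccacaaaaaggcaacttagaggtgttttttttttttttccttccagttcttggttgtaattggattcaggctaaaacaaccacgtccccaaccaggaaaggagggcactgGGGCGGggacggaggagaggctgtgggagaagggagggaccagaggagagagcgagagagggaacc
MMP15 promoter: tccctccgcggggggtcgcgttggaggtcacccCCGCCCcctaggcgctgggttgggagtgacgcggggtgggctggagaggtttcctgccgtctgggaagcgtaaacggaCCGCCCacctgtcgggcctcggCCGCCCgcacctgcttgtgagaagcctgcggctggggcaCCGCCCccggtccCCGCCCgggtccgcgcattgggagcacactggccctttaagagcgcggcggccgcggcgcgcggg
TIMP3 promoter: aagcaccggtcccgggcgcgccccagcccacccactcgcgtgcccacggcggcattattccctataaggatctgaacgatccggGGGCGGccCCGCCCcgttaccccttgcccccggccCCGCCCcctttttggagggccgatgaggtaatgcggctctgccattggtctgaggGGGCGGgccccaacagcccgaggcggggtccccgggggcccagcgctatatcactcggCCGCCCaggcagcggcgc
The MMP7 window held an AP-1 site 67 bases and a TATA box 30 bases before the RefSeq start, and no GC box. AP-1 sites were found in 4.2% and TATA boxes in 10.7% of all 35116 windows of this length, and GC boxes in 42.6%. MMP14 held 1 GC box, MMP15 held 5, TIMP3 held 5 and TIMP1 held 2, with no match to the other 2 motifs in these 4 windows. No matches overlapped. The GC content of the windows was 33.6% for MMP7, 56.8% for MMP14, 64.8% for TIMP1, 72.4% for TIMP3 and 74.8% for MMP15, where the median of all windows was 58%. GC boxes were held by MMP14, TIMP3 and TIMP1, which were below the PBS libraries in rIL-17B replicate 1, and by MMP15, which was above them. A link between these motifs and the levels was not tested.

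MMP14 encodes the transmembrane collagenase that activates pro-MMP2 at the cell surface (chromosome 14, 22836557 to 22849027, GENCODE 29 on GRCh38). It had 9699 and 8253 counts under PBS, against 8 and 8826 counts for rIL-17B replicates 1 and 2. As CPM this was 609.8 and 640.4 under PBS, against 0.547 and 503 with rIL-17B. Both treated libraries were below both controls, but by amounts that differ by orders of magnitude. rIL-17B replicate 1 was 1142-fold below the PBS mean, with a counting interval of 580-fold to 2645-fold (exact Poisson, 95%) set by its 8 reads. Replicate 2 held 80.4% of the PBS mean, while the PBS replicates differed by 5.01%. Across the 4 libraries the log2 fold change was -1.32 with a standard error of 2.47 and an adjusted p of 0.785 by the quasi-likelihood test of edgeR. The SD of the 2 treated libraries was 355 CPM, against 21.6 CPM for the PBS libraries.

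MMP2, gelatinase A, which cuts type IV collagen and denatured collagens (chromosome 16, 55389700 to 55506691), had 23420 and 17764 counts under PBS, against 1304 and 21680 counts for rIL-17B replicates 1 and 2. The CPM values were 1473 and 1378 under PBS, against 89.2 and 1235 with rIL-17B. The groups did not overlap, with replicate 1 being 16-fold below the PBS mean and replicate 2 at 86.6% of it. The log2 fold change was -1.12 with a standard error of 1.31 and an adjusted p of 0.706 in the edgeR test. MMP2 shares 174 exon bases with AC007336.3, an annotated transcript on the same strand. The other gelatinase, MMP9 (chromosome 20, 46008908 to 46016561), had 1 and 0 counts under PBS, against 5 and 0 counts with rIL-17B. The counting interval of the 5 reads, 0.111 to 0.798 CPM, overlapped that of the single PBS read, 0.00159 to 0.35 CPM, and the gene shares 430 exon bases with the antisense gene SLC12A5-AS1. Of the gelatinase genes, MMP2 alone had more than 5 counts in a library.

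MMP15, a second transmembrane protease close in structure to MMP14 (chromosome 16, 58025566 to 58046901), was the tested member with higher levels after rIL-17B. It had 630 and 543 counts under PBS, against 988 and 754 counts with rIL-17B, or 39.6, 42.1, 67.6 and 42.9 CPM. Both treated libraries lay above both PBS libraries, replicate 1 by 1.65-fold and replicate 2 at 105% of the PBS mean, less than the 6.36% by which the PBS replicates differed. The log2 fold change was 0.35 with a standard error of 0.22 and an adjusted p of 0.661 in the edgeR test. Per kilobase, MMP14 exceeded MMP15 by 17.5-fold and 17.3-fold in the PBS libraries and by 13.3-fold in rIL-17B replicate 2, whereas MMP15 exceeded MMP14 by 108-fold in rIL-17B replicate 1. That last ratio rests on the 8 reads of MMP14.

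**Figure D2:**
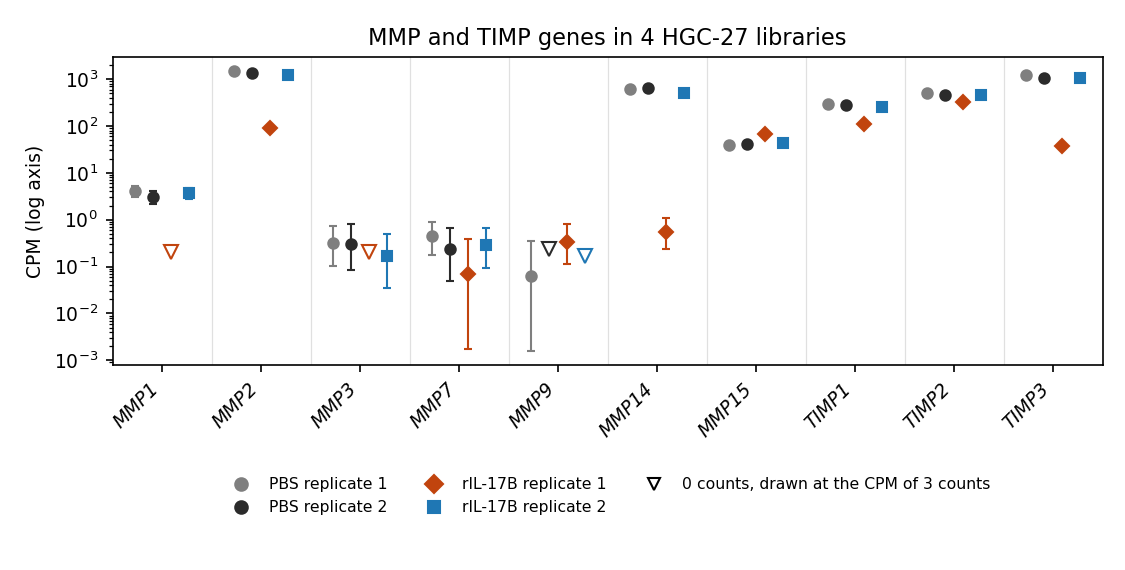
CPM (log axis) of the 10 genes in each library, with exact Poisson 95% intervals of the count as bars and open triangles for 0 counts, drawn at the level of 3 counts. rIL-17B replicate 1 (diamonds) lies far below the other libraries for MMP14 (0.547 CPM), MMP2 (89.2 CPM) and TIMP3 (36.7 CPM) and above them for MMP15 (67.6 CPM). For these genes rIL-17B replicate 2 (squares) lies closer to the PBS libraries, though below both for MMP14 (503 CPM), MMP2 (1235 CPM) and TIMP3 and above both for MMP15.

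The interstitial collagenase MMP1, which cuts fibrillar collagens (chromosome 11, 102789920 to 102798160), was expressed at a low level. It had 64 and 39 counts under PBS, against 0 and 64 counts for rIL-17B replicates 1 and 2, which is 4.02, 3.03, 0 and 3.65 CPM. Replicate 2 lay between the PBS libraries, and replicate 1 was at least 17.2-fold below their mean when 3 counts are set as its upper limit. The log2 fold change was -0.95 with a standard error of 1.87 and an adjusted p of 0.793 in the edgeR test. MMP1 shares 150 exon bases with the pseudogene WTAPP1 on the opposite strand, so its low count is uncertain without knowledge of the strand setting. The stromelysin MMP3 (chromosome 11, 102835801 to 102843803) had 5 and 4 counts under PBS, against 0 and 3 counts with rIL-17B. Matrilysin, MMP7 (chromosome 11, 102520508 to 102530753), whose AP-1 and TATA promoter is printed above, had 7 and 3 counts under PBS, against 1 and 5 counts with rIL-17B. Both treated libraries were below both PBS libraries for MMP3, which shares 32 exon bases with WTAPP1, and the groups overlapped for MMP7. Differences in MMP3, MMP7 and MMP9 were not detectable at this depth, and these 3 genes did not pass the filter on low counts.

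TIMP3, the inhibitor that binds to the matrix itself (chromosome 22, 32801701 to 32863043), had the highest counts of the TIMP members in each library but rIL-17B replicate 1. There its counts were the lowest of the TIMP members. It had 19399 and 13560 counts for PBS and 537 and 18146 counts for rIL-17B replicates 1 and 2. These were 1219.7 and 1052 CPM under PBS, against 36.7 and 1034 CPM with rIL-17B. Replicate 1 was 30.9-fold below the PBS mean, and replicate 2 was just below the lower PBS library, by less than the 15.9% between the PBS replicates. TIMP1, a soluble inhibitor of most MMPs (chromosome X, 47582313 to 47586789), had 4643, 3649, 1589 and 4520 counts in the same order of libraries. Its CPM values, 292 and 283 under PBS and 109 and 257 after rIL-17B, did not overlap, and replicate 1 was 2.64-fold below the PBS mean with replicate 2 at 89.5% of it. TIMP2 (chromosome 17, 78852977 to 78925387) had 7900, 5984, 4702 and 8166 counts, or 497, 464, 322 and 465 CPM. It was the TIMP member least apart in rIL-17B replicate 1, 1.49-fold below the PBS mean, and in replicate 2 it lay between the PBS libraries. The log2 fold changes were -1.10 for TIMP3, -0.69 for TIMP1 and -0.35 for TIMP2, with standard errors of 1.57, 0.51 and 0.27. Their adjusted p values in the edgeR test were 0.739, 0.661 and 0.662. TIMP3 and TIMP1 overlap the synapsin genes SYN3 and SYN1 on the opposite strand without shared exon bases, and TIMP2 shares 198 exon bases with CEP295NL and 367 with an antisense gene.

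Over the 10 genes, 7 were abundant enough to be tested, and 0 of the 7 passed the 0.05 threshold of the quasi-likelihood test of edgeR after Benjamini-Hochberg adjustment, as did 0% of all 16361 genes. In edgeR an unadjusted p under 0.05 was found for 0 of the 7 members and for 226 of the 16361 genes. DESeq2, run on 31907 genes without that filter on low counts, also called 0 genes, with 547 at an unadjusted p under 0.05. The log2 fold change was below 0 for 6 of the 7 and above 0 for MMP15, with a median of -0.95 beside -0.03 for all genes tested. Both rIL-17B libraries lay below both PBS libraries for MMP2, MMP14, TIMP1 and TIMP3, which is 4 of 7 where 27.5% of all genes did, and above them for MMP15, which is 1 of 7 where 31.5% did. These counts describe a short list and carry no test of their own.

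As rIL-17B replicate 1 stood apart, each treated library was also compared with the PBS pair alone, in fits that assume a lone library varies as the PBS libraries do and that compare libraries, not treatments. For rIL-17B replicate 2, edgeR called MMP14 lower, with a log2 fold change of -0.32, a standard error of 0.08 and an adjusted p of 0.00703. It was 1 of 7 members, where 2.3% of the 17103 genes of that fit were called lower and 0.643% higher. The other 6 members did not pass: MMP2 had a log2 fold change of -0.21 (adjusted p = 0.12), TIMP1 -0.16 (0.381), TIMP3 -0.14 (0.42), TIMP2 -0.05 (0.864), MMP15 0.07 (0.867) and MMP1 0.03 (0.983) in the edgeR fit. For rIL-17B replicate 1, edgeR called 6 of the 7 lower, where 31.9% of the 17223 genes were, and MMP15 higher, where 23.2% were.

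The balance of inhibitor to protease transcripts moved with the same library. Per kilobase, the TIMP members summed to 1.21 and 1.13 times the MMP members in the PBS libraries and to 1.26 times in rIL-17B replicate 2. In rIL-17B replicate 1 the ratio was 4.6, outside the range of the other 3 libraries. The ratio of TIMP2 to MMP14, partners on the cell surface, was 0.746 and 0.664 with PBS, 0.847 in rIL-17B replicate 2 and 538 in replicate 1. TIMP2 to MMP2 was 0.392 in each PBS library, 0.438 in replicate 2 and 4.19 in replicate 1. Of all reads on the 10 genes, TIMP2 took 12% in each PBS library, 13.1% in replicate 2 and 51.5% in replicate 1, and MMP14 took 14.7% and 16.6% with PBS, 14.2% in replicate 2 and 0.0876% in replicate 1.

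The rest of the family followed a mixed course. Of the 16 other MMP genes listed and TIMP4, 14 had a count, 10 were tested and 0 were called by edgeR. The log2 fold change was below 0 for 7 and above 0 for 3, with a median of -0.84 beside -0.03 for all genes tested. Both treated libraries lay below both PBS libraries for 5 of the 10, where 27.5% of all genes did, and above them for 1, where 31.5% did, and 0% of all genes were called. Among the membrane-type MMPs, which are tethered to the cell surface, MMP16 resembled MMP14 in direction, with 28 and 30 CPM under PBS, against 4.31 and 23.1 CPM for rIL-17B replicates 1 and 2. Its fold change was -1.11 on the log2 scale, with an SE of 0.90 and adjusted p = 0.662 in edgeR. MMP24 resembled MMP15, with 5.09 and 5.97 CPM under PBS, against 11.3 and 6.09 CPM with rIL-17B (log2 fold change 0.56, standard error 0.36, adjusted p = 0.661 in edgeR). The GPI-anchored MMP17 had 37.3, 35.8, 45.2 and 37 CPM, and MMP25 had 0.629 to 1.31 CPM, and for each the treated and control libraries overlapped, although MMP17 in rIL-17B replicate 1 was above the other 3 libraries. In rIL-17B replicate 1 MMP14 and MMP16 were thus lower than in the PBS libraries, and MMP15, MMP24 and MMP17 higher.

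**Figure D3:**
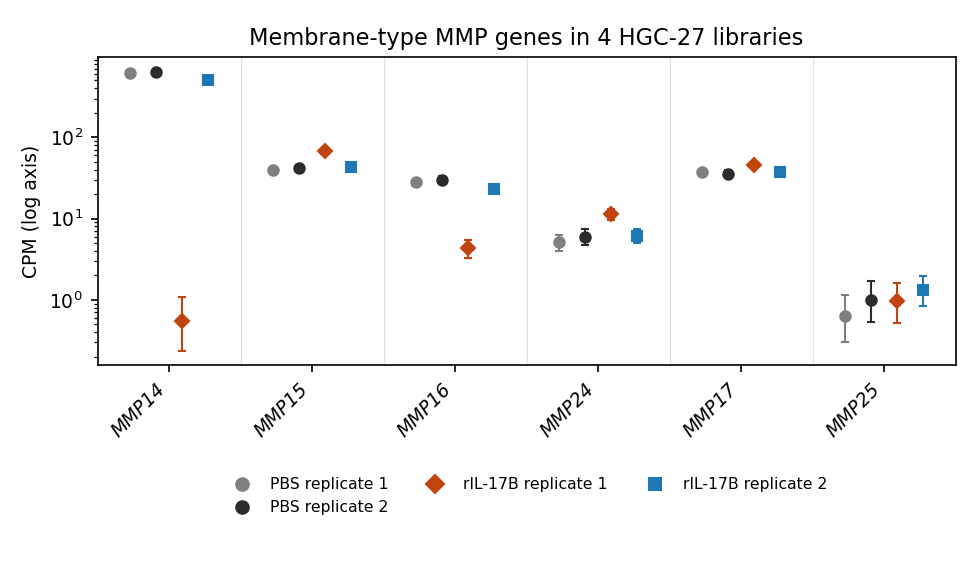
CPM (log axis) of the 6 membrane-type MMP genes in each library, with exact Poisson 95% intervals of the count. For MMP14 and MMP16 the diamond of rIL-17B replicate 1 (0.547 and 4.31 CPM) lies below the other libraries, for MMP15 and MMP24 it lies above them (67.6 and 11.3 CPM), and for MMP17 it lies above them by less (45.2 CPM), while the intervals of all libraries overlap for MMP25.

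TIMP4, the least widely expressed inhibitor, had 112 and 138 counts under PBS, against 85 and 96 counts with rIL-17B. Its CPM values were 7.04 and 10.7 under PBS, against 5.82 and 5.47 after rIL-17B. Both treated libraries were below both PBS libraries, but the PBS replicates differed by 52.1% and the counting intervals of both treated libraries (4.65 to 7.19 and 4.43 to 6.68 CPM) overlapped that of PBS replicate 1 (5.80 to 8.47 CPM). The log2 fold change was -0.72 with a standard error of 0.31 and an adjusted p of 0.661 in edgeR, and it was -0.40 without PBS replicate 2 and -0.99 without PBS replicate 1. MMP19, a protease of the basement membrane, had 12.4 and 13.2 CPM with PBS, 0.137 CPM from 2 reads in rIL-17B replicate 1 and 10.7 CPM in replicate 2. The collagenase MMP13, a substrate of MMP14, had 5.09, 5.12, 0.342 and 4.84 CPM, and the neutrophil collagenase MMP8 had 1.45, 1.71, 0 and 1.59 CPM. MMP11, stromelysin 3, had 5.47, 5.35, 2.94 and 5.41 CPM. MMP23B, which has a near-identical copy that may split its reads, had between 3 and 22 counts. MMP10, MMP12, MMP21 and MMP28 had at most 9 counts in any library, and MMP20, MMP26 and MMP27 had none.

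MMP activity also depends on plasmin, on proprotein convertases and on surface regulators, of which 18 genes were listed. All 18 had a count, 17 were tested and 0 were called by edgeR, with a log2 fold change below 0 for 13, above 0 for 4 and a median of -0.52 beside -0.03 for all genes. Both treated libraries lay below both PBS libraries for 9 of the 17 (27.5% of all genes) and above them for 2 (31.5% of all genes), and 0% of all genes were called. The endocytic receptor LRP1, which clears MMP and inhibitor complexes, had 1549 and 1603 CPM under PBS, against 323 and 1379 CPM with rIL-17B. Replicate 1 was 4.87-fold below the PBS mean, and the log2 fold change was -0.92 with a standard error of 0.80 and an adjusted p of 0.665 in edgeR. SERPINE2, an inhibitor of plasminogen activators and thrombin, had 700.1, 683, 372 and 631 CPM, and the protease CTSB, cathepsin B, had 686, 639, 321 and 633 CPM.

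BSG, also called EMMPRIN or CD147, a surface glycoprotein known to induce MMPs, had 841 and 910 CPM under PBS, against 1188 and 937 CPM with rIL-17B. FURIN, the convertase that removes the propeptide of MMP14, had 157, 168.06, 228 and 168.09 CPM. For both, the treated libraries lay above the PBS libraries, for FURIN by less than the counting error in replicate 2. The log2 fold changes were 0.20 for BSG and 0.20 for FURIN, each with a standard error of 0.15 and an adjusted p of 0.661 by edgeR. The activator PLAT, 1 of the 18, had 122, 119, 4.93 and 111 CPM, whereas PLAU, the urokinase gene, had 59.8, 56.7, 47.6 and 59.2 CPM. PLAT was named after its values were seen, as the counterpart of PLAU, which was too. RECK, a membrane-anchored inhibitor of MMP14 and MMP2 named in the same way, had 38.6, 36.1, 16.4 and 33.7 CPM.

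**Figure D4:**
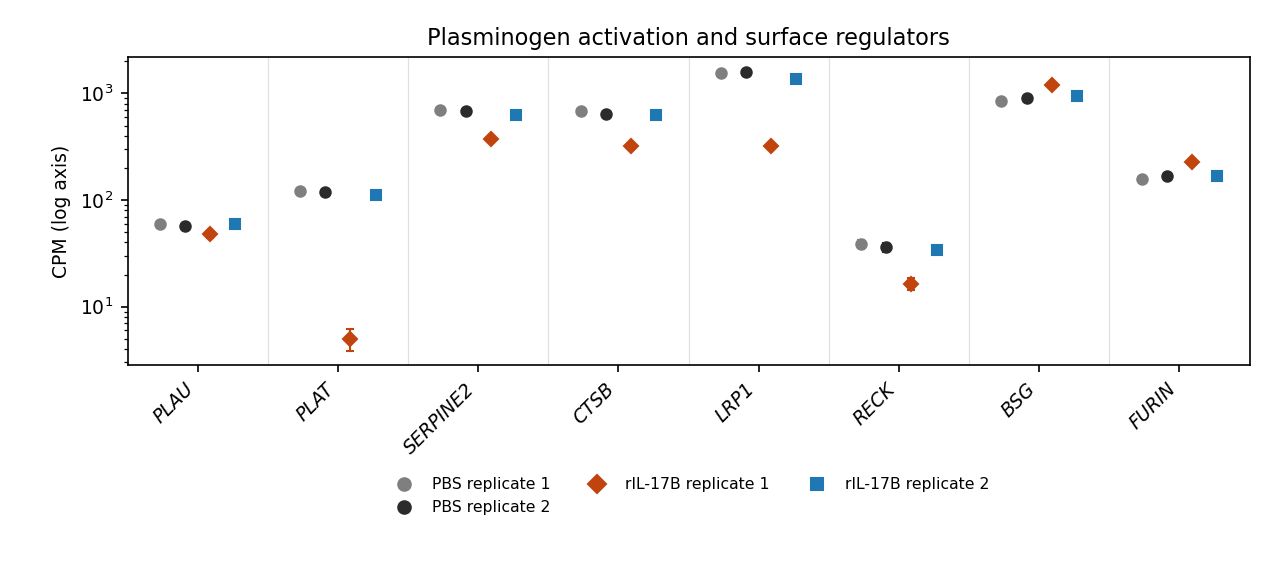
CPM (log axis) of 8 genes of plasminogen activation and MMP regulation in each library, with exact Poisson 95% intervals of the count as bars. In rIL-17B replicate 1 the diamonds of PLAT (4.93 CPM) and LRP1 (323 CPM) lie well below the other libraries, while those of BSG (1188 CPM) and FURIN (228 CPM) lie above them.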

How the data were processed

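RNA-seq of 4 HGC-27 libraries was used. The authors deposited raw counts, the whole number of reads per gene name, without normalization, from oligo-dT primed Smart-seq2 libraries. The submitters' processing notes name hg38, Bowtie2 2.2.3, HISAT2 2.1.0, TopHat2 and HTSeq 0.6.0, with no role or order. The annotation and the strand setting are not given in the sources used here. Names listed more than once carried the same count and were used once (83 to 98 per library), and 22 to 25 entries per library whose names had become date-like numbers (0.228% to 0.244% of counts) were left out. This gave totals between 12888029 and 17555879 counts.

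Counts of all genes were fitted with edgeR 4.0.16 in R 4.3.3 (TMM, filterByExpr, quasi-likelihood test, Benjamini-Hochberg adjustment over 16361 genes, threshold 0.05), after a check on simulated counts. The simulated counts had the spread of the 2 PBS libraries alone. They therefore do not show what the fit could detect at the wider spread of the treated libraries. An exact permutation test of 2 against 2 libraries cannot go below p = 0.333 and was not used. Coordinates and exon lengths (coding transcripts, merged exons) came from GENCODE 29, where all 10 members were found, and promoters from RefSeq on GRCh38.p14. Alternatives were DESeq2 1.42.0, other normalizations, no filter, a replicate block and leaving out each library.

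The members and lists were chosen with earlier results of these data known. All 10 members were named. Other family genes were named from 10 counts in a library on, and the remaining ones by name only. Of the regulators, the 6 with the highest mean CPM were named, with any called gene, and PLAT, PLAU and RECK were added after their values were seen. For MMP2 and TIMP3, the MMP and TIMP with the highest mean CPM, the 3 genes most alike in pattern were named. Genes that these rules pick but the text leaves out are not reported here.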

Additional observations from a re-analysis of the deposited data

How the results depend on the processing

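Genes passing the threshold numbered 0 in the fit of all 4 libraries and with upper-quartile factors, DESeq2 size factors, library totals alone, no filter on low counts, DESeq2 and the replicate block. The number ranged from 0 to 9489 when each library was left out, with 504 without rIL-17B replicate 1 and 9489 without rIL-17B replicate 2. The count of members ranged from 0 to 7 in the same fits, 1 (MMP14) without rIL-17B replicate 1 and 7 without rIL-17B replicate 2. The median log2 fold change over the 7 members tested was -0.95, between -0.97 and -0.94 with the other normalizations, DESeq2 and no filter, and -2.17 with the replicate block. It ranged from -4.13 to -0.14 over the libraries left out. MMP1 ranged from -8.73 to 0.0323, its sign reversing without rIL-17B replicate 1, and the lower value depends on the prior count because the remaining treated library held 0 reads. Of the members' fold changes, 61 kept direction and side of the threshold, and 8 passed it when an rIL-17B library was left out. The cause was not tested. The deviations of libraries that share a replicate number correlated by 0.08 across genes, and the labels tie the number to no shared batch. CPM values changed by -6.8% to 3.1% with TMM scaling and by -1.73% to -1.52% with every listed entry in the total. Depth limits MMP3, MMP7 and MMP9, which had at most 7 reads.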

Other observations

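A set of MMP genes lies side by side on chromosome 11, between 102520508 and 102955734. Of the 9 listed genes there (MMP7, MMP20, MMP27, MMP8, MMP10, MMP1, MMP3, MMP12 and MMP13), 7 had a count. Summed over the cluster, 182 and 136 reads were found under PBS, against 8 and 188 reads in rIL-17B replicates 1 and 2, or 11.4, 10.6, 0.547 and 10.7 CPM. The grouping by position was made after the values were seen and was not tested.

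Over the 4 libraries, the genes whose centred log2 CPM values (0.5 CPM added) lay nearest to those of MMP2 were COL3A1 and DDX58, at distances of 0.0078 and 0.0521. Nearest to TIMP3 were TSPYL5, CMTM5 and SERPINF1, at 0.0831, 0.0935 and 0.0956. COL3A1 had 4145 and 3871 CPM under PBS, against 252 and 3494 CPM with rIL-17B. With 4 points, of which rIL-17B replicate 1 lies far from the rest, this is a description of these libraries.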
